A study of Rattus norvegicus with 9 samples.

Results

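Axon guidance ligands and receptors were followed in dorsal root ganglia, which lie beside the spinal cord and hold the cell bodies of sensory neurons with their glia. Members were taken by symbol from the semaphorin (classes 3 to 7), plexin, neuropilin, Slit, Robo, netrin, Dcc and Unc5, ephrin and Eph families, and had to reach a CPM (counts scaled to a common library size) of 1 in at least 3 libraries. This gave 64 of the 69 genes with such symbols, in a table of 30446 genes, with 33 ligands and 31 receptors. The 5 others (Dcc, Unc5d, Epha1, Ntn5 and Sema3a) reached 1 CPM in at most 2 libraries. Just outside the threshold, Unc5d ran from 0.298 to 1.11 CPM of unscaled library totals and Dcc from 0.396 to 0.999. Just inside it, Robo4 ran from 1.07 to 2.07 CPM and Epha8 from 1.13 to 2.18. All 64 members also passed the low-count filter of the test, as did the 5 others.

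The animals were male Sprague-Dawley rats in 3 groups of 3 libraries: naive, sham-operated and injured in the spinal cord (SCI). Ganglia of both sides were assayed from the 2 lowest thoracic and all 6 lumbar levels, and all groups carry the label of 30 days after injury. The series describes 3 biological replicates a group. It gives no further detail of the sham operation or of the injury, and does not state whether a library holds 1 animal or several.

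Axon guidance proteins steer growing axons by attraction or repulsion. Slits repel axons through Robo receptors, secreted semaphorins act through neuropilins that pair with plexins, netrins act through Dcc and Unc5 receptors, and ephrins signal through Eph receptor tyrosine kinases, in both directions at cell contacts. In adult ganglia these families are made by neurons, glia, vessels and connective tissue, and several are also cues of vessel growth, myelination and synapse formation.

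The libraries held 16724878 to 32060538 counts, which puts 1 CPM at 16.7 to 32.1 counts, and the member with the fewest counts in any library held 23. The naive libraries lay apart from the sham and SCI libraries along the main axis of a principal component analysis (scores of -43.5 to -41.6 against 14.2 to 25.7). The sham libraries were spread along the second component (sham 1 at -25.9, sham 2 at -10.9 and sham 3 at 26.2), where the naive and SCI libraries lay between -4.02 and 6.6. The chi-square of counts per degree of freedom was 41.8 between sham 1 and sham 3 and 13.5 and 13.3 for the other sham pairs, beside 3.15 to 8.01 for pairs within naive or SCI. The labels name no batch, so that the operation and a batch holding only the naive libraries cannot be told apart in any comparison with naive. All 14 markers of sensory neurons were measured, and in SCI against naive 2 were called higher, 2 lower and 10 not at all. Peripherin (Prph) was among the higher ones (2366 ± 34.2 CPM in naive, 3144 ± 400.4 in sham and 3007 ± 263 in SCI). Scn9a was among the lower ones (392 ± 26.0 CPM in naive, 145 ± 26.1 in sham and 142 ± 5.38 in SCI). The cord was represented by 8 listed genes, mainly of oligodendrocytes and motor neurons. Of these, Mnx1, Olig2, Chat and Opalin had group means of at most 0.161 CPM, while Slc5a7, Mog, Mobp and Aqp4 were measured. The 8 summed to 25.8 to 29.1 CPM in naive, 11 to 15.4 in sham and 13.1 to 17 in SCI, mostly Slc5a7, the choline transporter of cholinergic neurons (19.2 ± 1.19 CPM in naive, 7.88 ± 2.36 in sham and 8.27 ± 0.313 in SCI). Slc5a7 and Mobp were called lower in both operated groups and Mog in sham. As the sum mainly follows Slc5a7, it is no level of cord cells as a whole. The part of cord cells in the changes below was not tested. In bulk ganglia, fewer cells of a type and less RNA per cell cannot be told apart.

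The comparisons with naive set the operated groups, with the cord injury or without it, beside naive ganglia. They hold the operation together with any batch of the naive libraries. Most of the change lay between naive ganglia and both operated groups, and the falls outnumbered the rises. Slit2 and Slit3, Sema5a, Sema3c, Sema3d and Sema3e, Nrp1 and Nrp2, the A-class plexins, Robo2 and Unc5c were lower in SCI and in sham than in naive, while Efna1, Efnb1, Ephb1, Ntn3, Unc5a and Sema4a were higher. In SCI against naive, the edgeR quasi-likelihood test with an adjusted p under 0.05 over all 16627 genes called 25 members lower (39.1% of members, where 24.6% of all genes tested were called lower) and 10 higher (15.6%, where 23.9% of all genes were). In sham against naive it called 29 members lower (45.3%, against 25.9% of all genes) and 10 higher (15.6%, against 24.7%). The higher calls in SCI were 6 without SCI 2, and those in sham were 5 without sham 1 and 6 without naive 2, whereas with any 1 library left out the lower calls stayed at 21 or more in SCI and 24 or more in sham. The test for any difference among the 3 groups called 37 members, 20 ligands and 17 receptors, and 48.5% of all genes. The median log2 change of the members was -0.15 in SCI against naive and -0.23 in sham against naive, beside 0.011 and 0.000 over all genes tested. Both comparisons share the naive libraries, so their values are not independent.

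The 25 members lower in SCI were also lower in sham, and 8 members were higher in both. The 25 ranged from -1.53 to -0.22 on the log2 scale in SCI against naive, and 4 of them (Sema5a, Slit2, Unc5c and Sema3d) fell at least 2-fold. The 8 ranged from 0.28 to 0.65. In 24 of the 25 lower members every SCI library lay below every naive library, and in 7 of the 8 higher members every SCI library lay above them. As these members were chosen by calls on the same libraries, this separation is no separate support for the calls. Over all members, the libraries of SCI and naive did not overlap in 30 members lower and 12 higher, which is 46.9% and 18.8% of members beside 31.8% and 32.2% of all genes tested. For sham and naive these were 28 lower and 11 higher, or 43.8% and 17.2% of members beside 29.2% and 27.5% of all genes tested. Among the SCI libraries, SCI 1 was the highest in 24 of the 25 lower members, and among the sham libraries sham 3 was the lowest in 13 of them. This order was not counted over all genes tested. On the main axis of the principal component analysis of all genes tested, SCI 1 also lay nearest to naive (14.2, beside 20.9 for SCI 2 and 22.5 for SCI 3). Without SCI 1 the count of members lower in SCI stayed at 25.

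**Figure D1:**
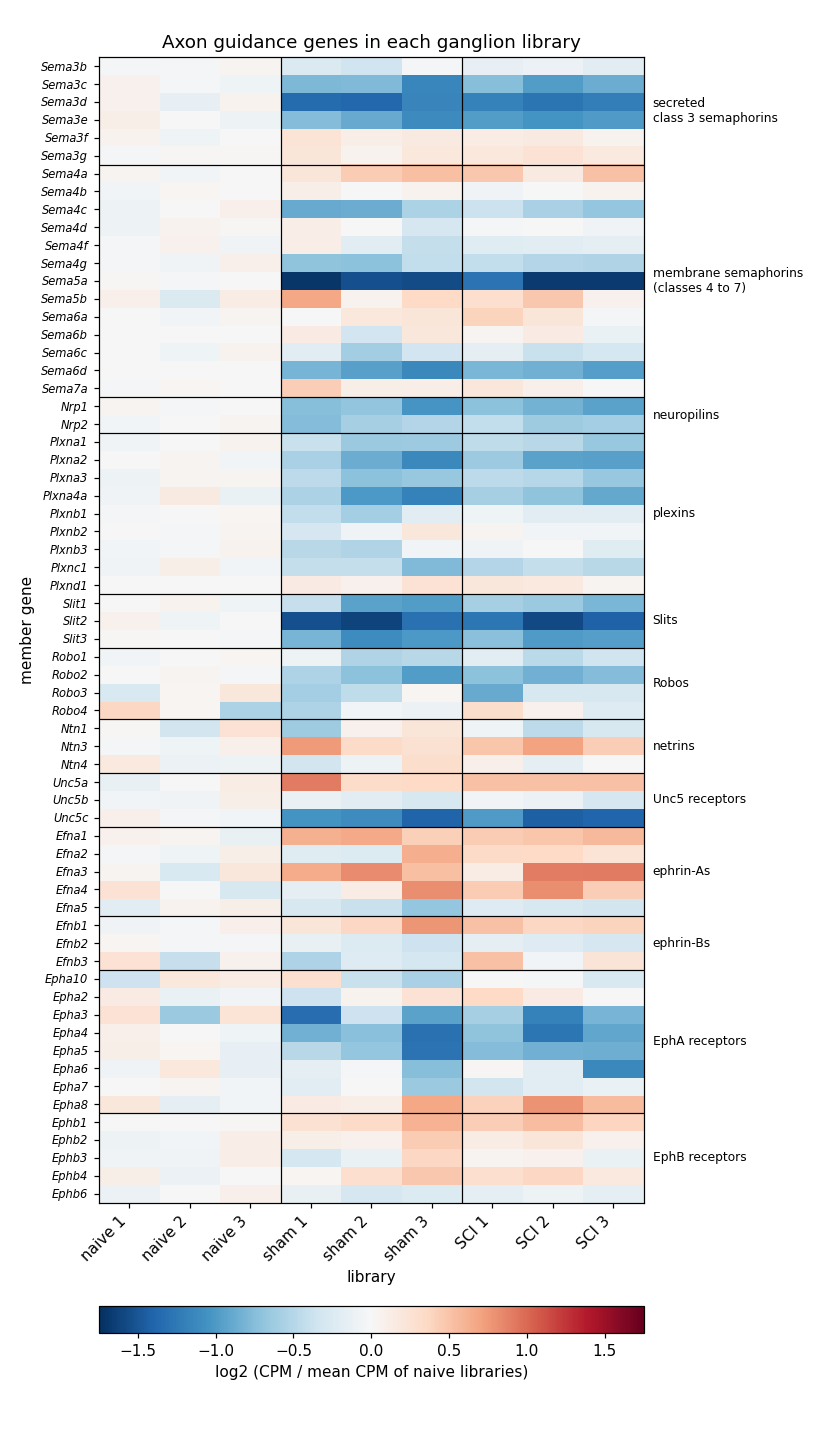
Map of the 64 members (rows, grouped by family) in the 9 libraries (columns); colour gives log2 of CPM over the mean CPM of the naive libraries, blue for lower and red for higher. Blue rows such as Sema5a, Slit2, Sema3d and Unc5c and red rows such as Efna1 and Ephb1 keep 1 colour through the 3 sham and the 3 SCI libraries.

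Promoter sequences were set beside these changes for members that moved together, as the 250 bases before the gene start in RefSeq on the rat build GRCr8. An entry was found for 51 of the 64 members, and not for Sema5a or Slit2. Of the members with an entry that had the smallest p for any difference, the first 2 that were lower and the first 2 that were higher are printed 5′ to 3′, each on its own strand. Capitals mark the GC box GGGCGG (read on both strands, where copies may overlap), the only motif found in them of the 4 searched. The positions are chr4:23460972-23461221 (minus strand) for Sema3d, chr3:132337106-132337355 (plus strand) for Sema6d, chr2:176986822-176987071 (minus strand) for Efna1 and chr8:111823760-111824009 (minus strand) for Ephb1.
Sema3d: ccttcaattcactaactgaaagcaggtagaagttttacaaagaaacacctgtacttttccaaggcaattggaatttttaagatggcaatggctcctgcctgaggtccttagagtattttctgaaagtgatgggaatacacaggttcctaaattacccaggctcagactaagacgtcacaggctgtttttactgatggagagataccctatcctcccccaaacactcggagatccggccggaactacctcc
Sema6d: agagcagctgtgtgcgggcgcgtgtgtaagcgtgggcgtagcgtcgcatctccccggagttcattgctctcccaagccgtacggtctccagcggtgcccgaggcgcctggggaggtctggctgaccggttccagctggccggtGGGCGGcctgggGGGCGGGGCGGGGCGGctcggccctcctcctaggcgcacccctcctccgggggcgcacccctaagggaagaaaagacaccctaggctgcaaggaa
Efna1: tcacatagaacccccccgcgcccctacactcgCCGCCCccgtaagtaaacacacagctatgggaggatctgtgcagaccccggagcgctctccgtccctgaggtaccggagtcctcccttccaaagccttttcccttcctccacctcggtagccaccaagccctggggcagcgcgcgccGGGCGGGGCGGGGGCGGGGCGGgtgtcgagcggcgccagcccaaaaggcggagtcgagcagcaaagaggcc
Ephb1: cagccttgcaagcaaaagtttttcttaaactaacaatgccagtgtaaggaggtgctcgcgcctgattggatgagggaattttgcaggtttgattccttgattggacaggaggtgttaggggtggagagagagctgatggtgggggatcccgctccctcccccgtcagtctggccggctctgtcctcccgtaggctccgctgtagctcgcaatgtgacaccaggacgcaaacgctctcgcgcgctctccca
Each direction thus had a promoter with GC boxes (4 in Sema6d and 5 in Efna1) and a promoter without (Sema3d and Ephb1). A GC box stood in 8 of 17 promoters of the members lower in both operated groups (47.1%), in 5 of 8 of those higher in both (62.5%), in 11 of 19 of those called in neither (57.9%) and in 32.4% of all 27457 promoters. The AP-1 motif TGANTCA was in 1 of the 51 member promoters (1.96%, against 6.36% of all), the cAMP response element TGACGTCA in 1 (1.96%, against 1.7%) and the E-box CACGTG in 4 (7.84%, against 5.79%). Neither the AP-1 nor the cAMP motif occurred in the promoters of members lower or higher in both groups. The GC content had a median of 60.4% in the lower members, 64% in the higher members and 52% in all promoters.

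For the counts by family below, 24.6% of all genes tested were called lower and 23.9% higher in SCI against naive. In sham against naive these shares were 25.9% and 24.7%. All 3 Slits, the secreted repellents, were lower in both operated groups. Slit2 stood at 93.9, 84.1 and 88.4 CPM in the naive libraries, 30.6, 28.8 and 35.8 in the sham libraries and 36.9, 29.6 and 33.4 in the SCI libraries. Every operated library lay far below the lowest naive library, and sham and SCI overlapped. The log2 change was -1.41 (SE 0.09, edgeR adjusted p = 4.03e-07) in SCI against naive and -1.48 (SE 0.09, edgeR adjusted p = 2.22e-07) in sham against naive. Slit3 stood at 32.5, 31.8 and 31.4 CPM in the naive libraries, 18.2, 14.9 and 16.0 in the sham libraries and 19.2, 16.1 and 16.4 in the SCI libraries, again with no overlap with naive. In SCI against naive Slit3 had a log2 change of -0.88 (SE 0.09, edgeR adjusted p = 6.79e-06), and in sham against naive of -0.96 (SE 0.09, edgeR adjusted p = 3.32e-06). Slit1, expressed mainly in the nervous system, fell from 107 ± 5.12 CPM in naive to 63.9 ± 15.2 in sham and 67.3 ± 5.02 in SCI (-0.67 ± 0.12 SE in log2, edgeR adjusted p = 0.000617 against naive). In the RefSeq gene table Slit2 and Slit3 each overlap a gene of the miR-218 family, and the counts are not split by strand.

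Of the 4 Robo receptors, Robo1 and Robo2 were lower in both operated groups and Robo3 and Robo4 were called in neither. Robo2 stood at 197, 205 and 193 CPM in the naive libraries, 137, 121 and 101 in the sham libraries and 120.1, 111 and 118 in the SCI libraries. Every operated library lay below every naive library, and sham 3 was the lowest of all. Against naive, Robo2 differed in log2 by -0.77 (SE 0.09, edgeR adjusted p = 2.28e-05) in SCI and by -0.73 (SE 0.09, edgeR adjusted p = 2.82e-05) in sham. Robo1 had a smaller log2 change (-0.33 ± 0.12 SE in log2, edgeR adjusted p = 0.0342 for SCI against naive), and its calls were lost without naive 1, naive 2, naive 3, SCI 2 or SCI 3 (edgeR adjusted p = 0.0607 to 0.134) in SCI and without naive 1, naive 2, naive 3, sham 2 or sham 3 (edgeR adjusted p = 0.0577 to 0.125) in sham, the latter also with only the compared groups (edgeR adjusted p = 0.0513). Robo3, a receptor of commissural axons, and Robo4, the endothelial member, lay at 2.27 ± 0.363 CPM in naive, 1.83 ± 0.437 in sham and 1.66 ± 0.367 in SCI, and at 1.60 ± 0.486 CPM in naive, 1.38 ± 0.242 in sham and 1.67 ± 0.307 in SCI. These genes overlap each other in the RefSeq table, so that reads of the shared stretch cannot be assigned to either.

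Among the 6 secreted class 3 semaphorins, Sema3c, Sema3d and Sema3e were lower in both operated groups, Sema3g was called higher in SCI and Sema3f in sham, and Sema3b was not called. Sema3d stood at 15.7, 13.5 and 15.6 CPM in the naive libraries, 5.84, 5.77 and 6.69 in the sham libraries and 6.55, 6.13 and 6.46 in the SCI libraries. All 6 operated libraries lay within a narrow band well below naive. Its promoter, printed above, holds none of the 4 motifs. Sema3d gave log2 changes of -1.22 (SE 0.10, edgeR adjusted p = 1.98e-06) for SCI and of -1.29 (SE 0.11, edgeR adjusted p = 1.24e-06) for sham, each against naive. Sema3c stood at 89.8, 83.9 and 80.8 CPM in the naive libraries, 49.1, 49.7 and 38.5 in the sham libraries and 50.4, 43.0 and 46.5 in the SCI libraries, and every operated library was below every naive library. The log2 change was -0.86 (SE 0.09, edgeR adjusted p = 1.16e-05) in SCI against naive and -0.89 (SE 0.09, edgeR adjusted p = 7.39e-06) in sham against naive. Sema3e, which binds plexin D1 without a neuropilin, fell as well, from 8.19 ± 0.562 CPM in naive to 4.36 ± 0.547 in sham and 4.09 ± 0.117 in SCI (-0.999 ± 0.12 SE in log2, edgeR adjusted p = 2.85e-05 against naive).

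The other secreted semaphorins had smaller changes. Sema3b stood at 678 ± 20.8 CPM in naive, 588 ± 68.8 in sham and 611 ± 19.7 in SCI (log2 change -0.15 in SCI and -0.20 in sham against naive, neither of which passed). Sema3g rose slightly in SCI (0.20 ± 0.06 SE in log2, edgeR adjusted p = 0.0157), at 89.1 ± 1.80 CPM in naive, 99.1 ± 5.70 in sham and 102 ± 2.97 in SCI. That call was lost without naive 1 or SCI 2 (edgeR adjusted p = 0.0652 and 0.07). Sema3f, a ligand of neuropilin 2, stood at 34.4 ± 1.70 CPM in naive, 38.7 ± 1.70 in sham and 37.2 ± 1.21 in SCI and passed in sham against naive (0.17 ± 0.07 SE in log2, edgeR adjusted p = 0.0446). The Sema3f call ended with only the compared groups (edgeR adjusted p = 0.0725), with a filter of 1 CPM in 3 libraries (edgeR adjusted p = 0.0513), in DESeq2 (adjusted p = 0.0515), in edgeR without a low-count filter (adjusted p = 0.0928) and edgeR with the replicate block (adjusted p = 0.0612), and without naive 2, naive 3, sham 1, SCI 1, SCI 2 or SCI 3 (edgeR adjusted p = 0.0556 to 0.164). Sema3a, the classical repellent of sensory axons, was too low to be a member, at 0.774 ± 0.273 CPM in naive, 0.340 ± 0.0799 in sham and 0.440 ± 0.0682 in SCI. With 7 to 29 counts a library, it was still tested and called lower in sham against naive (-1.21 ± 0.35 SE in log2, edgeR adjusted p = 0.0119). It did not pass in SCI against naive (-0.79 ± 0.32 SE in log2, edgeR adjusted p = 0.0576).

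The neuropilins, which bind the secreted semaphorins and also vascular endothelial growth factor, were both lower in both operated groups. Nrp1 stood at 85.6, 80.6 and 82.2 CPM in the naive libraries, 49.2, 51.3 and 40.5 in the sham libraries and 50.2, 46.7 and 43.2 in the SCI libraries. No operated library reached the naive level. In SCI against naive Nrp1 had a log2 change of -0.82 (SE 0.09, edgeR adjusted p = 8.18e-06), and in sham against naive of -0.82 (SE 0.09, edgeR adjusted p = 7.20e-06). Nrp2 stood at 103, 107 and 110.5 CPM in the naive libraries, 63.4, 71.9 and 74.9 in the sham libraries and 79.2, 69.6 and 70.8 in the SCI libraries. It had log2 changes of -0.55 (SE 0.07) in SCI and -0.61 (SE 0.07) in sham, both against naive and both called (edgeR adjusted p = 6.79e-05 and 2.35e-05).

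Of the 9 plexins, which carry the semaphorin signal into the cell, the 4 of class A, the partners of neuropilins, were all called lower in both operated groups, as was Plxnc1. Plxna2 stood at 142, 146 and 137 CPM in the naive libraries, 96.1, 77.7 and 65.0 in the sham libraries and 91.2, 73.9 and 73.6 in the SCI libraries, with the highest operated value in sham 1 and the lowest in sham 3. Its log2 change was -0.83 (SE 0.12) in SCI against naive. Plxna3, the plexin with the smallest p for any difference, fell from 76.6 ± 3.97 CPM in naive to 50.2 ± 4.93 in sham and 52.8 ± 3.92 in SCI (-0.54 ± 0.08 SE in log2, edgeR adjusted p = 0.000147 against naive). Plxna1 and Plxna4 (listed as Plxna4a) had log2 changes of -0.53 (SE 0.08) and -0.72 (SE 0.14) in SCI against naive.

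Plxnc1, the receptor of semaphorin 7A, lay at 67.0 ± 4.11 CPM in naive, 46.5 ± 6.32 in sham and 48.3 ± 1.64 in SCI (-0.47 ± 0.09 SE in log2, edgeR adjusted p = 0.00072 for SCI against naive). Plxnd1, a plexin best known from vessels, was called in neither comparison, at 139, 139 and 140.0 CPM in the naive libraries, 154, 147 and 166 in the sham libraries and 159, 156 and 145 in the SCI libraries. All its operated libraries lay above the naive ones, by a small margin (log2 change 0.14 in SCI, edgeR adjusted p = 0.0961). Plxnb2 was called in neither, at 81.9 ± 2.34 CPM in naive, 79.8 ± 13.7 in sham and 81.1 ± 3.29 in SCI. Plxnb1 and Plxnb3 were called lower in sham against naive and not in SCI against naive, and their values are given with the comparison of SCI and sham.

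Of the 13 membrane semaphorins (classes 4 to 7), 5 were lower in both operated groups (Sema4c, Sema4g, Sema5a, Sema6c and Sema6d) and Sema4a was higher in both. Sema5a, a transmembrane semaphorin with thrombospondin repeats, had the lowest log2 change of all members. It stood at 319, 306 and 316 CPM in the naive libraries, 96.5, 108 and 106 in the sham libraries and 128, 98.7 and 98.3 in the SCI libraries. All operated libraries lay far below naive, and SCI 1 was the highest of them. Against naive, Sema5a differed in log2 by -1.53 (SE 0.10, edgeR adjusted p = 2.73e-07) in SCI and by -1.60 (SE 0.10, edgeR adjusted p = 1.45e-07) in sham. Sema6d, which binds plexin A1, stood at 122, 121 and 122 CPM in the naive libraries, 69.0, 62.9 and 55.7 in the sham libraries and 70.2, 67.7 and 62.3 in the SCI libraries. Sham and SCI overlapped, and both lay clear of naive. Sema6d gave log2 changes of -0.87 (SE 0.08, edgeR adjusted p = 2.59e-06) for SCI and of -0.96 (SE 0.08, edgeR adjusted p = 1.09e-06) for sham, each against naive. Its promoter is the one printed above with 4 GC boxes.

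Sema4c, a ligand of plexin B2, stood at 90.3, 96.2 and 102 CPM in the naive libraries, 52.5, 52.8 and 65.6 in the sham libraries and 73.9, 65.1 and 60.1 in the SCI libraries. It was lower in both operated groups (log2 change -0.54, SE 0.10, edgeR adjusted p = 0.00053 in SCI, and -0.76, SE 0.10, edgeR adjusted p = 3.38e-05 in sham). Sema4g had log2 changes of -0.49 and -0.62, and Sema6c of -0.29 and -0.36, in SCI and sham against naive. The SCI call of Sema6c was lost without naive 1, naive 3, SCI 2 or SCI 3 (edgeR adjusted p = 0.0555 to 0.0925). Sema4a, which is also known from immune cells, stood at 11.5, 10.7 and 11.1 CPM in the naive libraries, 12.9, 15.1 and 16.1 in the sham libraries and 15.4, 12.4 and 15.8 in the SCI libraries, with every operated library above every naive one. The log2 change was 0.40 (SE 0.11, edgeR adjusted p = 0.00959) in SCI against naive and 0.40 (SE 0.11, edgeR adjusted p = 0.0094) in sham against naive.

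The other 7 membrane semaphorins were not called in SCI against naive. Sema4d, the ligand of plexin B1, lay at 40.2 ± 2.07 CPM in naive, 38.8 ± 5.43 in sham and 39.1 ± 0.801 in SCI, and Sema4b had a log2 change of 0.001. Sema7a, anchored to the membrane by a lipid, stood at 137, 143 and 141 CPM in the naive libraries, 190.0, 151 and 153 in the sham libraries and 161, 150.2 and 142 in the SCI libraries. It was called higher in sham against naive (0.23 ± 0.09 SE in log2, edgeR adjusted p = 0.0411), where sham 1 stood above the other sham libraries. That call was lost without naive 1, naive 2, naive 3, sham 1, SCI 2 or SCI 3 (edgeR adjusted p = 0.0519 to 0.189), and with only the naive and sham libraries in the fit (edgeR adjusted p = 0.0677).

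Of the netrins Ntn3 was higher in both operated groups, and of the netrin receptors Unc5a was higher and Unc5c lower. Ntn3 stood at 6.69, 6.45 and 7.26 CPM in the naive libraries, 11.4, 8.57 and 8.18 in the sham libraries and 9.55, 11.1 and 9.14 in the SCI libraries. Each operated library lay above each naive library. In SCI against naive Ntn3 had a log2 change of 0.54 (SE 0.14, edgeR adjusted p = 0.00488), and in sham against naive of 0.48 (SE 0.14, edgeR adjusted p = 0.0105). The sham call of Ntn3 was lost without sham 1 (edgeR adjusted p = 0.0699). Ntn1, the classical attractant, and Ntn4, a netrin related to laminins, were not called, at 9.73 ± 1.91 CPM in naive, 9.32 ± 2.62 in sham and 8.11 ± 1.07 in SCI, and at 21.8 ± 2.35 CPM in naive, 21.6 ± 4.84 in sham and 21.5 ± 1.86 in SCI.

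Unc5c, a repulsive netrin receptor, stood at 16.0, 14.7 and 14.6 CPM in the naive libraries, 7.31, 7.02 and 5.70 in the sham libraries and 7.60, 5.63 and 5.77 in the SCI libraries. Its operated libraries all held less than the lowest naive library. Against naive, Unc5c differed in log2 by -1.24 (SE 0.13, edgeR adjusted p = 8.25e-06) in SCI and by -1.17 (SE 0.13, edgeR adjusted p = 1.07e-05) in sham. Unc5a, of the same family, stood at 4.30, 4.72 and 5.17 CPM in the naive libraries, 8.85, 5.89 and 6.0 in the sham libraries and 6.74, 6.72 and 6.77 in the SCI libraries, with sham 1 the highest and all operated libraries above naive. Unc5a gave log2 changes of 0.51 (SE 0.15, edgeR adjusted p = 0.0152) for SCI and of 0.56 (SE 0.16, edgeR adjusted p = 0.00845) for sham, each against naive. The SCI call of Unc5a was lost without naive 1 (edgeR adjusted p = 0.062) and at equal depth (edgeR adjusted p = 0.0631), and the sham call without sham 1 (edgeR adjusted p = 0.0576). Unc5a overlaps Hk3 in the RefSeq table. Unc5b was called in neither, at 18.1 ± 1.18 CPM in naive, 15.8 ± 0.850 in sham and 16.4 ± 1.48 in SCI. Dcc, the attractive netrin receptor, was below the threshold for members, at 0.569 ± 0.155 CPM in naive, 0.523 ± 0.156 in sham and 0.809 ± 0.205 in SCI.

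**Figure D2:**
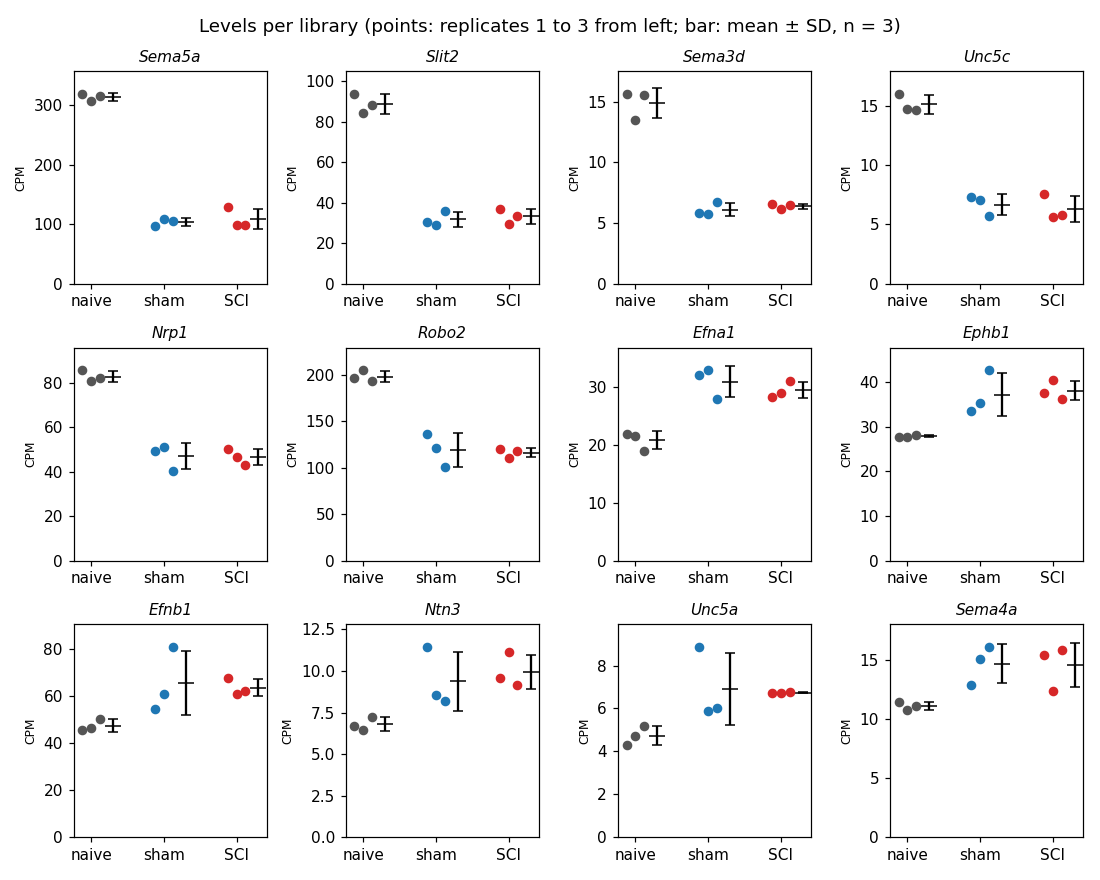
CPM (vertical axes, from 0) of 12 members in each library, with naive in grey, sham in blue and SCI in red; the bar beside the points is mean ± SD of 3 libraries. Sema5a, Slit2, Sema3d, Unc5c, Nrp1 and Robo2 lie lower, and Efna1, Ephb1, Efnb1, Ntn3, Unc5a and Sema4a higher, in all operated libraries than in all naive ones.

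Ephrins and Eph receptors included higher and lower members. Of the 5 ephrin-As, which are bound to the membrane by a lipid anchor, Efna1 and Efna3 were higher in both operated groups. Efna1 stood at 22.0, 21.6 and 19.0 CPM in the naive libraries, 32.1, 32.9 and 27.9 in the sham libraries and 28.4, 29.1 and 31.0 in the SCI libraries. Every operated library exceeded the highest naive one. The log2 change was 0.50 (SE 0.08, edgeR adjusted p = 0.000338) in SCI against naive and 0.57 (SE 0.09, edgeR adjusted p = 0.000107) in sham against naive. Its promoter holds the 5 GC boxes shown above. Efna3 stood at 1.45, 1.16 and 1.61 CPM in the naive libraries, 2.20, 2.50 and 2.03 in the sham libraries and 1.54, 2.62 and 2.64 in the SCI libraries and was called in SCI (0.65 ± 0.23 SE in log2, edgeR adjusted p = 0.0296), although SCI 1 overlapped with naive, and in sham (0.67 ± 0.23 SE in log2, edgeR adjusted p = 0.0278). The sham call of Efna3 was lost without naive 1, naive 2, sham 1 or sham 2 (edgeR adjusted p = 0.0512 to 0.0995) and at equal depth (edgeR adjusted p = 0.144), and the SCI call without naive 1, naive 2, SCI 2 or SCI 3 (edgeR adjusted p = 0.0594 to 0.123) and at equal depth (edgeR adjusted p = 0.172). Efna5, known for topographic mapping, was lower in sham against naive (-0.44 ± 0.13 SE in log2, edgeR adjusted p = 0.0136) and did not pass in SCI (log2 change -0.28, edgeR adjusted p = 0.0922). Its sham call was lost without naive 2, naive 3 or sham 3 (edgeR adjusted p = 0.051 to 0.0557). Efna2 and Efna4 were called in neither.

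Of the 8 EphA receptors, Epha3, Epha4 and Epha5 were lower in both operated groups. Epha4, a receptor of both ephrin classes, stood at 7.96, 7.46 and 7.10 CPM in the naive libraries, 4.19, 4.52 and 3.02 in the sham libraries and 4.60, 3.11 and 4.0 in the SCI libraries, with no overlap with naive. In SCI against naive Epha4 had a log2 change of -0.92 (SE 0.16, edgeR adjusted p = 0.000409), and in sham against naive of -0.94 (SE 0.16, edgeR adjusted p = 0.000367). Epha5 stood at 24.3, 23.0 and 20.3 CPM in the naive libraries, 16.1, 14.1 and 9.22 in the sham libraries and 13.3, 12.6 and 12.5 in the SCI libraries (-0.82 ± 0.15 SE in log2, edgeR adjusted p = 0.000547 for SCI against naive), and sham 3 was its lowest library. Epha3 overlapped between groups, with naive 2 at 3.02 CPM against 5.61 and 5.55 in the other naive libraries (-0.81 ± 0.26 SE in log2, edgeR adjusted p = 0.0212 for SCI against naive). Its SCI call was lost without naive 1, naive 3, SCI 2 or SCI 3 (edgeR adjusted p = 0.0557 to 0.0842) and its sham call without naive 1, naive 3 or sham 1 (edgeR adjusted p = 0.0705 to 0.0734). Epha8 was called higher in SCI (0.57 ± 0.21 SE in log2, edgeR adjusted p = 0.0345) at 1.27 ± 0.162 CPM in naive, 1.60 ± 0.376 in sham and 1.90 ± 0.255 in SCI, near the threshold for members. Its call was lost without naive 2, naive 3, SCI 2 or SCI 3 (edgeR adjusted p = 0.0711 to 0.12), at equal depth (edgeR adjusted p = 0.0652) and in DESeq2 (adjusted p = 0.0695). Epha2, Epha6, Epha7 and Epha10, which lacks kinase activity, were called in neither.

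Of the 5 EphB receptors, 2 were called higher in SCI against naive and 0 lower, where 23.9% of all genes were called higher and 24.6% lower. Ephb1 stood at 27.8, 27.7 and 28.2 CPM in the naive libraries, 33.5, 35.2 and 42.6 in the sham libraries and 37.6, 40.5 and 36.2 in the SCI libraries. All operated libraries lay above all naive ones, which were closely spaced. Against naive, Ephb1 differed in log2 by 0.45 (SE 0.09, edgeR adjusted p = 0.000887) in SCI and by 0.41 (SE 0.09, edgeR adjusted p = 0.00159) in sham. Ephb4, a receptor of veins, was called higher in both (0.28 ± 0.10 SE in log2, edgeR adjusted p = 0.0421 for SCI against naive), at 17.3 ± 1.23 CPM in naive, 21.0 ± 3.09 in sham and 20.9 ± 1.39 in SCI. The SCI call of Ephb4 was lost without naive 2, naive 3, sham 2, SCI 1 or SCI 2 (edgeR adjusted p = 0.0531 to 0.14) and with the replicate block (edgeR adjusted p = 0.0583), and the sham call without naive 2, naive 3, sham 2, sham 3 or SCI 1 (edgeR adjusted p = 0.0592 to 0.155), with the block (edgeR adjusted p = 0.0642), with only the compared groups (edgeR adjusted p = 0.0657) and in limma-voom (adjusted p = 0.0599). Ephb2 and Ephb3 were called in neither. Ephb6, which has no active kinase, was called lower in sham (-0.22 ± 0.07 SE in log2, edgeR adjusted p = 0.0168), at 60.3 ± 3.98 CPM in naive, 51.7 ± 3.04 in sham and 54.9 ± 1.61 in SCI. That call was lost without naive 3 or sham 2 (edgeR adjusted p = 0.0813 and 0.067).

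Among the ephrin-Bs, which span the membrane, Efnb1 was higher and Efnb2 lower in both operated groups. Efnb1 stood at 45.5, 46.4 and 50.5 CPM in the naive libraries, 54.8, 61.0 and 80.9 in the sham libraries and 67.9, 61.1 and 62.1 in the SCI libraries, with sham 3 the highest. Efnb1 gave log2 changes of 0.42 (SE 0.11, edgeR adjusted p = 0.00764) for SCI and of 0.46 (SE 0.12, edgeR adjusted p = 0.0044) for sham, each against naive. Efnb2, a marker of arteries, fell from 47.0 ± 0.946 CPM in naive to 39.7 ± 3.07 in sham and 40.2 ± 1.81 in SCI (-0.22 ± 0.07 SE in log2, edgeR adjusted p = 0.0172 against naive). The SCI call of Efnb2 was lost without naive 1, SCI 2 or SCI 3 (edgeR adjusted p = 0.0574 to 0.0791) and the sham call without naive 1 (edgeR adjusted p = 0.0501). The Efnb1 and Efnb2 libraries of naive did not overlap with either operated group. Efnb3 was called in neither comparison with naive, although the test for any difference among the 3 groups called it (edgeR adjusted p = 0.0446).

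The comparison of SCI with sham asks what the cord injury added to the operation, and no member passed there. EdgeR called 0 of 64 members and 0.0% of all genes. DESeq2 called 0 members and 0.0541% of all genes, and limma-voom called 0 members and 0.0% of all genes. With edgeR, 4 of the 64 members (Efnb3, Plxnb1, Sema4c and Plxnb3, all with positive changes) had an unadjusted p under 0.05. Of all 16627 genes tested, 526 (3.16%) did. The log2 changes of the members ran from -0.17 to 0.63, with a median of 0.034 beside -0.001 over all genes tested. The libraries of SCI and sham did not overlap in 2 members, both higher (3.12% of members, where 3.3% of all genes were), and in 0 members lower (where 3.11% were). For the 25 members lower in both operated groups, the changes between SCI and sham lay between -0.097 and 0.22. Skeletal muscle markers differed in level between these groups, with sums over 10 genes of 154 to 168 CPM in sham, 75.6 to 113 in SCI and 72.9 to 113 in naive, and their part in the changes was not tested.

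Efnb3, an ephrin-B of neurons that repels corticospinal axons at the midline, had the smallest p of the members. It stood at 5.28, 3.37 and 4.66 CPM in the naive libraries, 3.05, 3.81 and 3.57 in the sham libraries and 6.30, 4.30 and 5.18 in the SCI libraries. Every SCI library lay above every sham library, while naive overlapped with both. The log2 change was 0.63 (SE 0.19, edgeR adjusted p = 1), beside 0.27 (SE 0.18) in SCI against naive and -0.36 (SE 0.19) in sham against naive. Plxnb1 stood at 44.6, 45.2 and 46.6 CPM in the naive libraries, 33.6, 30.2 and 39.5 in the sham libraries and 43.4, 40.1 and 39.9 in the SCI libraries, with SCI above sham and below naive. Its change was 0.26 (SE 0.09, edgeR adjusted p = 1), beside a call in sham against naive (log2 change -0.40, edgeR adjusted p = 0.00171).

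Plxnb3 stood at 92.4, 94.6 and 99.5 CPM in the naive libraries, 68.2, 66.6 and 92.8 in the sham libraries and 91.9, 95.9 and 82.1 in the SCI libraries, so that sham 3 lay at the SCI level and the other sham libraries below it. Its log2 change of 0.25 (SE 0.11, edgeR adjusted p = 1) became 0.41 without sham 3 and passed there (edgeR adjusted p = 0.0478). Without sham 3 it was the only one of the 64 members called in SCI against sham, and the share of all genes called there was not counted. The Plxnb3 call in sham against naive was lost without naive 3, sham 1 or sham 2 (edgeR adjusted p = 0.0516 to 0.0959). Sema4c, with values given above, had a log2 change of 0.22 (SE 0.10). Sema4g (44.0 ± 2.49 CPM in naive, 28.7 ± 3.30 in sham and 31.4 ± 1.17 in SCI) had 0.13 (SE 0.09) and Sema7a -0.13 (SE 0.09), and none of these passed (edgeR adjusted p = 1 for each).

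**Figure D3:**
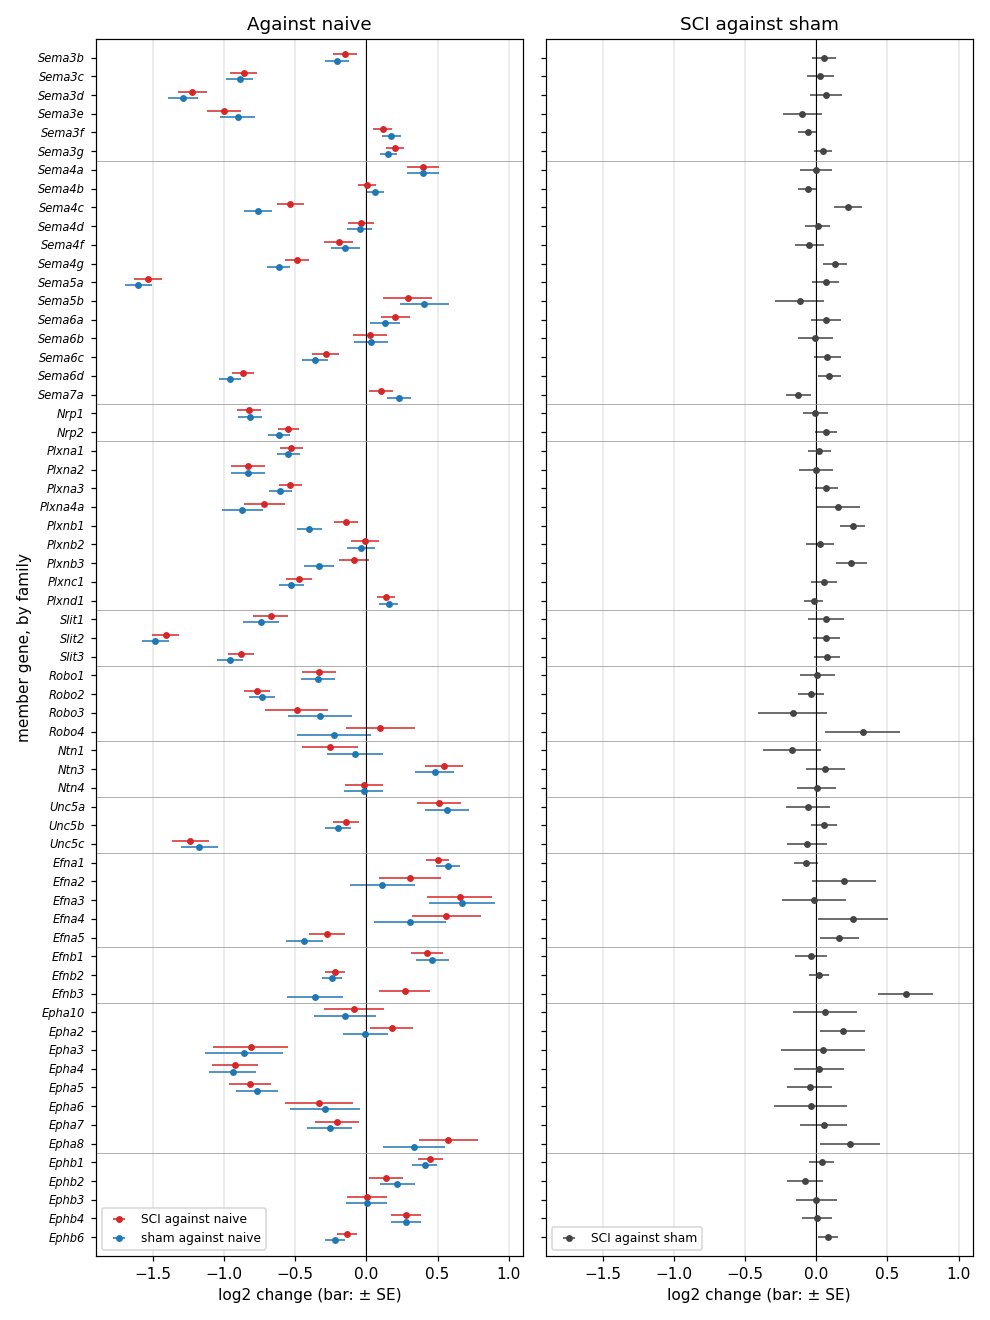
Log2 change of each member (horizontal axis, with bars of ± 1 SE), in SCI (red) and sham (blue) against naive on the left and in SCI against sham on the right; lines part the families. On the left the members run from -1.60 to 0.67, while on the right Efnb3 at 0.63 is the farthest from 0 and no member passed.

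In 8 members a call against naive was made in only 1 operated group, and in all of them SCI and sham were not called apart. Plxnb1, Plxnb3, Ephb6 and Efna5 were called lower, and Sema3f and Sema7a higher, in sham alone, and Epha8 and Sema3g higher in SCI alone. In SCI against sham the 8 had log2 changes from -0.13 (Sema7a) to 0.26 (Plxnb1). A further 23 members were called in neither comparison with naive.

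Genes that carry or modify guidance signals, from 5 lists, showed both directions against naive and no call in SCI against sham. Beside the counts below, 48.5% of all genes tested were called in SCI against naive and 50.6% in sham against naive. Of 11 adhesion co-receptors, 0 were called higher and 7 lower in SCI against naive (median log2 change -0.43), and 0 higher and 8 lower in sham against naive (median -0.48). Chl1, a cell adhesion molecule that assists semaphorin receptors, fell from 91.3 ± 2.37 CPM in naive to 38.8 ± 4.33 in sham and 43.3 ± 3.43 in SCI (-1.07 ± 0.08 SE in log2, edgeR adjusted p = 1.09e-06 against naive). Nrcam and Flrt3 had log2 changes of -0.87 (SE 0.11) and -0.83 (SE 0.08). Neogenin (Neo1), which binds netrins and repulsive guidance molecules, fell (-0.67 ± 0.07 SE in log2, edgeR adjusted p = 6.87e-06 for SCI against naive), while its ligand Rgma rose from 16.2 ± 0.498 to 23.5 ± 1.06 CPM (0.54 ± 0.11 SE in log2, edgeR adjusted p = 0.00172). Dscam was called higher in sham only (log2 change 0.32, edgeR adjusted p = 0.0262, lost without naive 2 or sham 1 (edgeR adjusted p = 0.107 and 0.114) and at equal depth, edgeR adjusted p = 0.0657), and that list of 5 tested genes had 1 gene higher and 1 lower in SCI against naive.

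Among the 9 myelin inhibitors of axon growth and their receptors, 3 were called higher and 4 lower in SCI against naive (median log2 change 0.079), and 3 higher and 4 lower in sham against naive (median 0.18). Mag, Rtn4 (Nogo) and Omg, the classical inhibitors of axon growth in myelin, had log2 changes of -0.85, -0.76 and -0.37 in SCI against naive, and the receptor Rtn4rl2 had 0.50 in sham against naive. Rtn4rl2 was also called higher in SCI against naive (0.27 ± 0.10 SE in log2, edgeR adjusted p = 0.0311). That SCI call was lost without naive 1, naive 2, naive 3, SCI 2 or SCI 3 (edgeR adjusted p = 0.0555 to 0.105). The sham call of Omg was lost without naive 2, naive 3, sham 2 or sham 3 (edgeR adjusted p = 0.0558 to 0.0945) and at equal depth (edgeR adjusted p = 0.0587). Of 13 CRMP and MICAL mediators, 3 were called higher and 2 lower in SCI against naive (median log2 change 0.042), and 2 higher and 2 lower in sham against naive (median 0.052), which is 38.5% and 30.8% of the list and below the share of all genes. Cdk5, a neuronal kinase in semaphorin signalling, rose (0.31 ± 0.06 SE in log2, edgeR adjusted p = 0.00121 for SCI against naive), while Gsk3b and Farp1 had -0.49 and -0.27. The sham call of Farp1 was lost without naive 1, naive 3, sham 1 or sham 2 (edgeR adjusted p = 0.0555 to 0.0849), with only the compared groups (edgeR adjusted p = 0.0522) and without a low-count filter (edgeR adjusted p = 0.0502).

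Of 20 kinases and actin effectors, 8 were called higher and 6 lower in SCI against naive (median log2 change 0.050), and 7 higher and 6 lower in sham against naive (median 0.10). Pak2, a kinase that acts on the actin cytoskeleton, fell (-0.59 ± 0.07 SE in log2, edgeR adjusted p = 3.27e-05 for SCI against naive), while Limk1, which controls the actin-severing protein cofilin, rose from 207 ± 5.61 to 313 ± 2.53 CPM (0.60 ± 0.08 SE in log2, edgeR adjusted p = 4.18e-05).

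Other gene groups moved with the comparisons against naive. All 46 measured genes of a list known for very long coding sequences had a negative log2 change in SCI against naive (median -1.09). Of these, 45 were called, where 24.6% of all genes tested were called lower. This list was set up after earlier results of these data, in which such genes were lower in operated libraries. The summed level of the 46 genes was 9612 to 10242 CPM in naive, 4341 to 4749 in sham and 4368 to 4873 in SCI. Of 69 tested ribosomal protein genes, which are known for short coding sequences, 61 were called higher in SCI (median 0.58), where 23.9% of all genes were. The 93 genes with such symbols summed to 11912 to 12148 CPM in naive, 14649 to 23066 in sham and 17665 to 18585 in SCI. Transcript lengths of the members were not analysed here, and the part of this pattern in their changes was not tested.

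Marker lists of cell types that can express these genes were counted in SCI against naive, where 48.5% of all genes tested were called (23.9% higher and 24.6% lower). The share called was 80.0% for myelinating and 83.3% for nonmyelinating Schwann cells, 66.7% for endothelium and macrophages and 62.5% for pericytes and smooth muscle. It was near that of all genes at 50% for fibroblasts and satellite glia, and lower at 28.6% for sensory neurons. These shares join both directions. For fibroblasts 0 were called higher, so that 50% of the markers were lower where 24.6% of all genes were. Of 10 markers of myelinating Schwann cells, 8 were lower in SCI against naive and 0 higher (summed 30442 to 32160.4 CPM in naive, 17869.8 to 22249 in sham and 19354 to 23484 in SCI). Of 6 markers of nonmyelinating Schwann cells 5 were lower (summed 2361 to 2469, 1635 to 2126 and 1797 to 1856 CPM in naive, sham and SCI), and of 8 fibroblast markers 4 were lower (summed 4786 to 5559, 2735 to 4854 and 3198 to 3972 CPM in the same order). The nonmyelinating markers L1cam, Ncam1 and Chl1, all called lower, were also counted among the adhesion co-receptors above. Ngfr of that list and Mag of the myelinating list were also counted with the myelin inhibitors and their receptors. Of 8 markers of pericytes and smooth muscle 5 were higher and 0 lower (summed 217 to 231, 259 to 359 and 277 to 294 CPM in the same order). Of 6 tested endothelial markers 2 were higher and 2 lower (summed 157 to 166, 143 to 199 and 168 to 182 CPM in the same order), and Cldn5 was listed at 0 in all libraries. Of 14 sensory neuron markers 2 were higher (Prph and Uchl1) and 2 lower (Scn9a and Scn10a), with sums of 32060.2 to 33563, 31582 to 46379 and 35365 to 35974 CPM. Of 8 satellite glia markers 3 were higher and 1 lower (summed 4104 to 4181, 6907 to 8990.5 and 6744 to 7929 CPM in the same order). Of 9 macrophage markers 5 were higher and 1 lower (summed 159 to 184, 175 to 279.6 and 216 to 224 CPM in the same order). The part of any of these in the changes of the guidance genes was not tested.

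**Figure D4:**
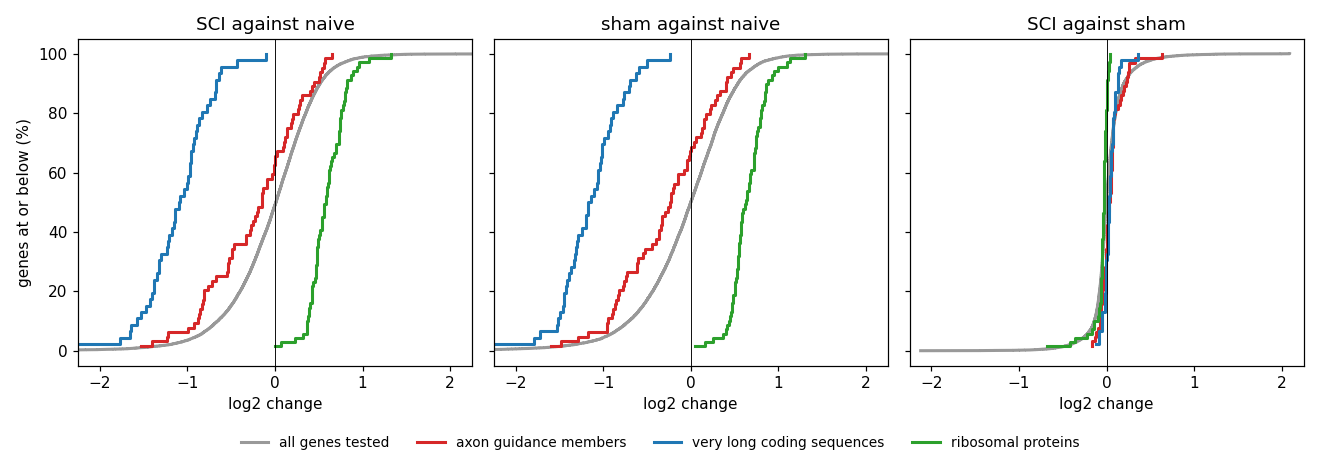
Cumulative share of genes (vertical axis, %) at or below each log2 change (horizontal axis) for all genes tested, the 64 members, the 46 genes with very long coding sequences and the 69 ribosomal protein genes. Against naive the curve of the members lies left of all genes at negative changes and between the other lists, whereas the curves draw together around 0 in SCI against sham.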

How the data were processed

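RNA of dorsal root ganglia was measured in 9 libraries, 3 per group, and groups were taken from the treatment labels. Per the labels' protocols, the kit was TruSeq V2, which does not mark strand, so that overlapping genes cannot be told apart. The submitters' processing notes list TopHat2 and HTSeq, beside Trimmomatic, FastQC and DESeq2. Genome build, annotation and versions were not given in the sources used here. Deposited values are whole-number counts per gene for 30446 genes, not normalized.

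EdgeR's quasi-likelihood test (version 4.0.16, R 4.3.3) was run on the counts, with TMM scaling, edgeR's default filter on low counts, all 9 libraries in 1 fit and Benjamini-Hochberg adjustment over 16627 genes, and calls were made at an adjusted p under 0.05. The members and lists were chosen with earlier results of these data known. Printed CPM were scaled by TMM, whereas membership used plain library totals. The test was checked on simulated counts. DESeq2 (1.42.0), limma-voom (limma 3.58.1) and other settings were alternatives. Named members were, for each comparison with naive, the 10 higher and 10 lower with the smallest p among called members whose groups did not overlap, for SCI against sham the 6 with the smallest p, in each family the most abundant and, if called, the one with the smallest p, and up to 3 called genes per pathway list and comparison with naive. Other members were described to complete their families. For the pathway lists, 1 list and a few named genes are left out and not reported here. Apart from taking the most abundant member of a family by CPM, which is not scaled by length, levels were not compared between genes, and a planned description of change by transcript length was not made, because lengths for the files' build were not used here. Gene overlaps and promoters came from RefSeq (GRCr8), matched by symbol. At the shallowest depth 1 CPM is 16.7 counts, so members near that level carry more counting error.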

Additional observations from a re-analysis of the deposited data

How the results depend on the processing

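Under other scaling (RLE, upper quartile), other filters, DESeq2, limma-voom, fits of only the groups compared, the replicate block and libraries thinned to equal depth, all counts of members called higher or lower stayed within 1.5 times the reported ones. Leaving out 1 library at a time, 0 to 1 member was called higher in SCI against sham (1 without sham 3), 6 to 12 were called higher in SCI against naive (6 without SCI 2) and 5 to 11 in sham against naive (5 without sham 1, 6 without naive 2). The lower calls ran from 21 to 27 and from 24 to 29. Shares of all genes called were not counted for these fits with a library left out. None of the recomputed changes of called members, of the 6 members named for SCI against sham or of the named pathway genes changed its sign. Calls of single genes against naive were lost in 87 of the recomputations with a library left out, where fewer libraries were tested, and in 20 of the others, where the cause was not tested. They lay in Dscam, Efna3, Efna5, Efnb2, Epha3, Epha8, Ephb4, Ephb6, Farp1, Ntn3, Omg, Plxnb3, Robo1, Rtn4rl2, Sema3f, Sema3g, Sema6c, Sema7a and Unc5a. Plxnb3 gained a call in SCI against sham without sham 3 (0.41). With the replicate block, 9 members were called higher and 25 lower in SCI against naive, 8 higher and 29 lower in sham against naive, and 0 in SCI against sham. Deviations of same-numbered libraries correlated between -0.0946 and 0.124, and those of differently numbered libraries between -0.132 and 0.156. No pairing by number was thus detected, which does not exclude one. Members at 1 to 3 CPM, such as Epha8, Robo4 and Efna2, rest on fewer counts than the others.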
